A study of Mus musculus with 54 samples.

Results

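The CD28 family and the checkpoint receptors are represented here by 10 genes, Cd28, Ctla4, Icos, Pdcd1, Btla, Lag3, Tigit, Havcr2, Cd274 and Cd200. They were taken as a named list of costimulatory and inhibitory receptor genes of T cells. No measured value was a criterion of the list, but it was chosen with earlier results of these data known. All 10 were among the 55385 genes of both count tables and all 10 had at least 1 read in each. RNA-seq was performed on naive CD4+ T cells purified from pooled lymph nodes and spleens of C57BL/6 mice aged 8 to 10 weeks, either extracted right after purification (0 h) or cultured for 4 h or 20 h with anti-CD3 coated on the plate (3 µg/ml) and anti-CD28 in solution (1 µg/ml), so that the stimulus itself engaged the Cd28 product in every stimulated group. The CD5/CD6 experiment compared 4 genotypes, WT, Cd5-/-, Cd6-/- and Cd5-/-Cd6-/-, the last carrying a deletion of the neighbouring Cd5 and Cd6 genes, at 3 times in 36 libraries. The LAT experiment compared WT (hDTR+) and Lat-/- (hDTR-) cells at the same times in 18 libraries, and each condition of both experiments had 3 replicates. Both LAT groups were sorted from Lat fl-dtr maT-Cre mice, so the WT cells also carried the floxed allele with its human diphtheria toxin receptor reporter and the Cre transgene. The CD5/CD6 experiment purified its cells with a bead kit rather than by sorting, and each table was fitted on its own.

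A T cell that recognises antigen through its T cell receptor (TCR) is fully activated when CD28 binds CD80 or CD86 on the presenting cell, and CTLA-4 competes with CD28 for the same ligands and restrains the response. ICOS is a later costimulator of the same family, whereas PD-1 (Pdcd1), BTLA, LAG-3, TIGIT and TIM-3 (Havcr2) are inhibitory receptors that T cells acquire or raise on activation. PD-L1 (Cd274) is the ligand of PD-1, and CD200 is the ligand of an inhibitory receptor carried mainly by myeloid cells. LAT is the adaptor that links the TCR to most of its downstream signals, and CD5 and CD6 are surface proteins that tune TCR signalling.

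The 10 genes lie on 5 chromosomes of the GRCm38 build used for the counts. Cd28 (chr1:60716800-60773359), Ctla4 (chr1:60887000-60915832) and Icos (chr1:60977927-61000320) are neighbours on the plus strand, and Pdcd1 (chr1:94038305-94052553, minus strand) lies farther along the same chromosome. Tigit (chr16:43648867-43664146, minus strand), Btla (chr16:45224315-45257670, plus strand) and Cd200 (chr16:45382135-45409053, minus strand) share chromosome 16. Lag3 is at chr6:124904361-124911705 on the minus strand, Havcr2 at chr11:46454935-46481255 on the plus strand and Cd274 at chr19:29367455-29388095 on the plus strand. An exon of Cd274 overlaps AC119228.1 on the opposite strand, which had 4 to 2006 reads per library in the CD5/CD6 experiment and 0 to 520 in the LAT experiment.

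Promoter windows of 225 bases, from 250 to 26 bases before the RefSeq transcript start (GRCm38.p6), were read for the 7 members in the promoter table (Ctla4, Pdcd1, Btla, Tigit, Havcr2, Cd274 and Cd200). The 4 shown belong to the members with the highest fold changes at 4 h (Pdcd1 and Cd274) and to a pair higher at 20 h than at 4 h (Ctla4 and Cd200). They are written 5′ to 3′ on the strand of the gene, and capitals mark GGAAA, the core letters bound by NFAT factors, or its reverse complement TTTCC.
Pdcd1 (chr1:94052579-94052803, minus strand): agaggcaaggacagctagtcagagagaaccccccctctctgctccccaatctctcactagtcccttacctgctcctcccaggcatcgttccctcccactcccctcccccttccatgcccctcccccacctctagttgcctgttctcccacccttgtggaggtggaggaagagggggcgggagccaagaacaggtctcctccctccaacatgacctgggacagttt
Cd274 (chr19:29367188-29367412, plus strand): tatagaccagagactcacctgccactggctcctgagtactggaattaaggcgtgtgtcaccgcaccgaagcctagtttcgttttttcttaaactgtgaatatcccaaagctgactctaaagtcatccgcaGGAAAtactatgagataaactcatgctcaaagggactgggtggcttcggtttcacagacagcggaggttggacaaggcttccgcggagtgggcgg
Ctla4 (chr1:60908775-60908999, plus strand): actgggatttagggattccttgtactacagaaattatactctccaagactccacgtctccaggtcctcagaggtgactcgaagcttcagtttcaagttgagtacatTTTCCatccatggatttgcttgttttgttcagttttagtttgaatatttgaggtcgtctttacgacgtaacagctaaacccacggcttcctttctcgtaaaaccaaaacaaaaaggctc
Cd200 (chr16:45409079-45409303, minus strand): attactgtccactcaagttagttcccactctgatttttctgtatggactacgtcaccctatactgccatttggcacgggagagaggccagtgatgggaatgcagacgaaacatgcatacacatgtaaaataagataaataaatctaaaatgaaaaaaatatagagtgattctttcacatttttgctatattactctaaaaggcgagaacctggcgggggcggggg
GGAAA was found on either strand in 3 of the 7 windows, at 120 bases before the start in Cd274, 144 in Ctla4 and 110 in Tigit, while 52% of all 32851 promoters of the same length held it. The Ctla4 window lies inside the gene's span in the count annotation, which starts upstream of the RefSeq start. TGANTCA, a loose form of the AP-1 site in which N is any base, was found in Havcr2 alone of the 7, as TGATTCA. The same loose pattern was in 6.24% of all promoters. TTCNNNGAA, the site of STAT factors, was in 0 of the 7 windows and in 6.38% of all promoters. GGAAA and TTCNNNGAA can overlap on the same bases, and a match is only a description of the letters in this window.

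Depth ranged from 20554354 to 45222554 assigned reads per library in the CD5/CD6 experiment and from 17784644 to 28501095 in the LAT experiment. Levels are given as CPM, the reads of a gene scaled to a common library total, with sizes adjusted by trimmed mean of M values (TMM), and 3 reads in a library, the number that a count of 0 allows, corresponded to 0.0663 to 0.146 CPM and 0.105 to 0.169 CPM on library totals without that adjustment. The CD4+ T cell genes Cd3d, Cd3e, Cd3g, Cd4 and Trac summed to 2227 to 5814 CPM in every library of the CD5/CD6 experiment and to 2316 to 6513 CPM in the LAT experiment. At 0 h, library 2 labelled Cd5-/- had Cd5 at 719 CPM and Cd6 at 329 CPM, whereas library 2 labelled Cd6-/- had Cd5 at 172 CPM and Cd6 at 1203 CPM, so that each went against its label. The first was close to libraries 1 and 3 labelled Cd6-/- at 0 h, whose Cd5 was 719 to 724 CPM beside 251 to 349 CPM for Cd6. The second was close to libraries 1 and 3 labelled Cd5-/-, whose Cd5 was 105 to 129 CPM beside 1084 to 1298 CPM for Cd6. An exchange of the labels was not tested. Both libraries were kept as labelled, so the 0 h values of these knockouts include them. The comparisons they enter were repeated without them. Lat was at 92.2 to 351 CPM in the WT libraries and at 5.69 to 19.1 CPM in the Lat-/- libraries of the LAT experiment. The WT cells of that experiment had less Lat RNA than those of the CD5/CD6 experiment at each time. Lat was at 214 to 292 against 649 to 792 CPM at 0 h and at 262 to 351 against 1077 to 1345 CPM at 4 h. At 20 h it was at 92.2 to 105 against 459 to 631 CPM. This difference between the experiments, whose libraries were scaled apart, was not tested.

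To compare receptors with each other, levels were divided by exon length. In unstimulated WT libraries of the CD5/CD6 experiment, Btla, which binds the ligand HVEM, had the highest level of the 10, at a mean of 31.5 CPM per kb, followed by Cd274 at 9.00, Cd200 at 6.35 and Pdcd1 at 3.76 CPM per kb. Cd28, Lag3, Tigit, Icos and Ctla4 followed at means between 0.787 and 2.47 CPM per kb, neighbours in that order whose libraries overlapped in part, and Havcr2 was last at 0.34. At 4 h Pdcd1 was first at 239, ahead of Cd274 at 199.6 and Btla at 133 CPM per kb. At 20 h Cd200 was first at 166, ahead of Pdcd1 at 132 and Btla at 123 CPM per kb. The libraries of Pdcd1 (119, 147 and 129) and Btla (115, 128 and 125 CPM per kb) overlapped at that time.

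**Figure D1:**
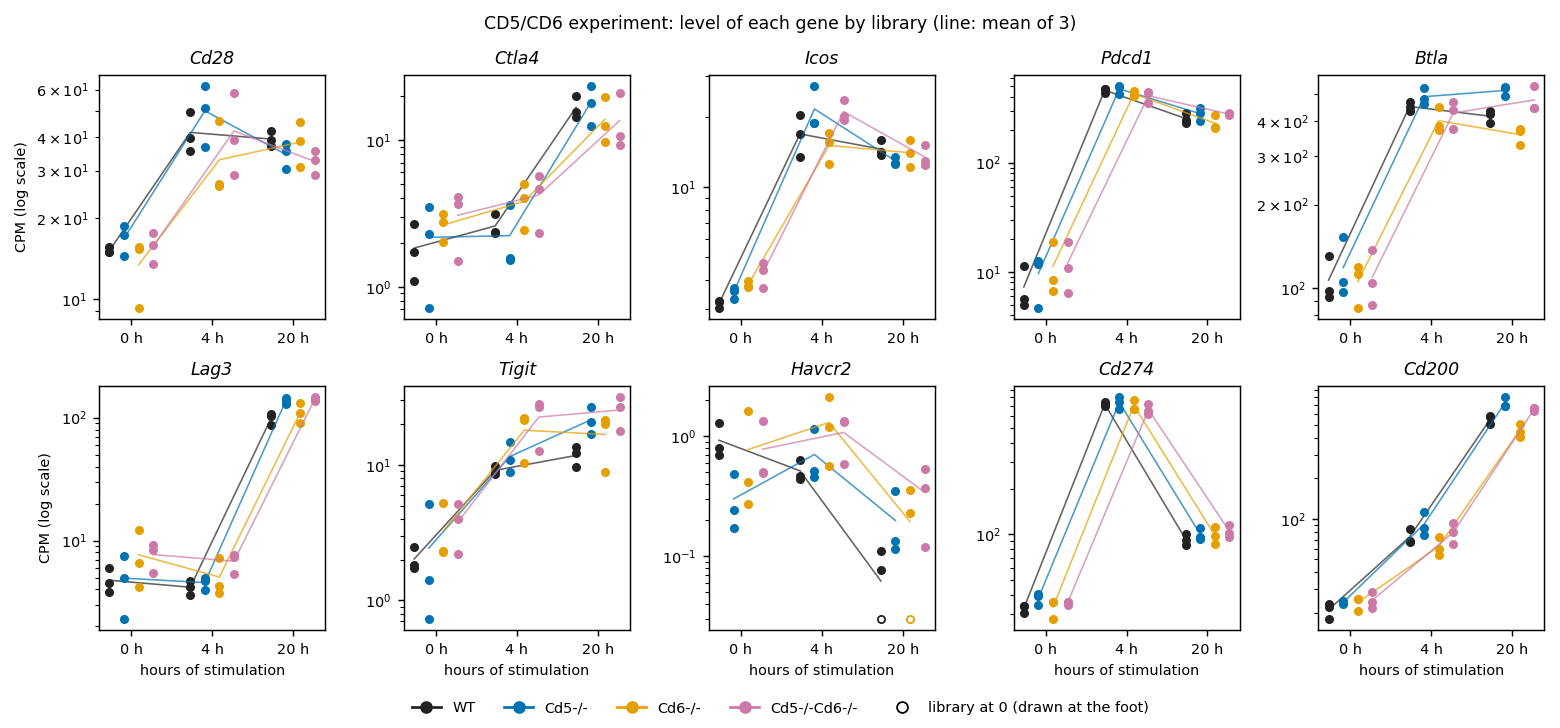
Level of each of the 10 genes in the 36 libraries of the CD5/CD6 experiment, as CPM on a log axis against hours of stimulation, with points for libraries and lines for the means of the 4 genotypes. Pdcd1 and Cd274 peak at 4 h, Lag3, Cd200 and Ctla4 are highest at 20 h, and the genotypes lie close together.

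Which of these genes respond to stimulation was asked first in WT cells. A gene was called changed at a fold change above 2 and a Benjamini-Hochberg adjusted p below 0.05 over all genes in edgeR's quasi-likelihood test. In WT libraries of the CD5/CD6 experiment, 7 members rose and 0 fell at 4 h against 0 h, where 19.3% of all 32290 genes tested were called in either direction. At 20 h against 0 h, 9 rose and 1 fell, with 29.6% of all genes called, and between 4 h and 20 h 3 rose and 2 fell, with 21% of all genes called. In WT cells of the LAT experiment the corresponding counts were 9 and 0 at 4 h (17.3% of 27780 genes called), 9 and 0 at 20 h (23.5%) and 3 and 3 between 4 h and 20 h (17.2%). In the LAT fit every gene took the spread of the trend with abundance, since the estimated prior degrees of freedom were infinite, and p-values of genes whose libraries differ widely are therefore too small there. A second fit was made for that experiment after removal of low-count genes by filterByExpr, which left 13928 genes with prior degrees of freedom of 6.46, and standard errors printed for members of the LAT experiment come from it. In WT cells 7 of the 9 members called at 4 h were called in the second fit, without Ctla4 (log2 1.01 ± 0.54, adjusted p = 0.000914 and 0.111 in the second fit) and Havcr2, which the filter removed. The median member log2 fold change was 1.94 at 4 h and 2.36 at 20 h in the CD5/CD6 experiment and 1.95 and 2.26 in the LAT experiment, beside a median of 0 over all genes tested each time. For the CD5/CD6 experiment the prior degrees of freedom were 50.9 in the fit used and 4.73 after filterByExpr. The spread of each gene was thus drawn toward the trend there as well. Its standard errors, intervals and p-values come from that fit and can be too small for genes whose libraries differ widely. No call of a member in that experiment changed after filterByExpr. In these bulk samples, a change in the number of cells that express a gene and a change in RNA per cell cannot be told apart.

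Among the CD28 family, Cd28 itself was at 14.9, 15.5 and 14.9 CPM in the 3 unstimulated WT libraries of the CD5/CD6 experiment, at 49.6, 35.4 and 39.8 CPM at 4 h and at 38.9, 36.9 and 42.1 CPM at 20 h. Both stimulated times were above every unstimulated library and overlapped with each other. The log2 fold change was 1.46 ± 0.20 (SE) at 4 h (adjusted p = 5.39e-09) and 1.38 ± 0.20 at 20 h (adjusted p = 1.71e-08). Icos went from 3.23, 3.25 and 3.03 CPM to 20.4, 13.5 and 17 CPM at 4 h and to 15.9, 13.8 and 14.1 CPM at 20 h. The 4 h and 20 h libraries overlapped, with a log2 fold change from 0 h of 2.42 ± 0.20 at 4 h (adjusted p = 2.69e-17) and of 2.20 ± 0.20 at 20 h (adjusted p = 7.93e-16). Ctla4, the competitor of Cd28, behaved differently in time. Its libraries read 2.69, 1.72 and 1.09 CPM at 0 h, 2.36, 3.11 and 2.31 CPM at 4 h and 20, 14.4 and 15.4 CPM at 20 h. The 0 h and 4 h libraries overlapped (log2 fold change 0.52 ± 0.36, adjusted p = 0.35), and all 3 libraries at 20 h lay above them, with a log2 fold change of 3.19 ± 0.37 against 0 h (adjusted p = 6.49e-12) and of 2.67 ± 0.36 against 4 h (adjusted p = 1.6e-09).

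The per-length ratio of Ctla4 to Cd28 followed from these courses and was computed within each library. It was 0.475, 0.290 and 0.192 in the 3 unstimulated WT libraries of the CD5/CD6 experiment, between 0.125 and 0.230 at 4 h and between 0.963 and 1.35 at 20 h. The mean was 0.319 ± 0.144 (SD, n = 3) before stimulation, 0.169 ± 0.0547 at 4 h and 1.11 ± 0.211 at 20 h. Per exon length, RNA of the inhibitory member was thus near the level of the costimulatory one at 20 h in these libraries. The annotated exon length is 6122 bases for Cd28 and 2330 for Ctla4. Without that division the mean ratio of counts at 20 h was 0.424, so the near equality rests on it. With 3 libraries a group, the smallest two-sided p of an exact permutation test is 0.1, and no test of the ratio was made. In WT cells of the LAT experiment the means were 0.735 ± 0.230, 0.445 ± 0.338 and 1.18 ± 0.166 at the same times. In Lat-/- cells they were 0.330 ± 0.124, 0.363 ± 0.245 and 0.144 ± 0.105, and the 3 libraries at 20 h, between 0.0534 and 0.260, were all below the WT libraries, between 0.988 and 1.30.

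**Figure D2:**
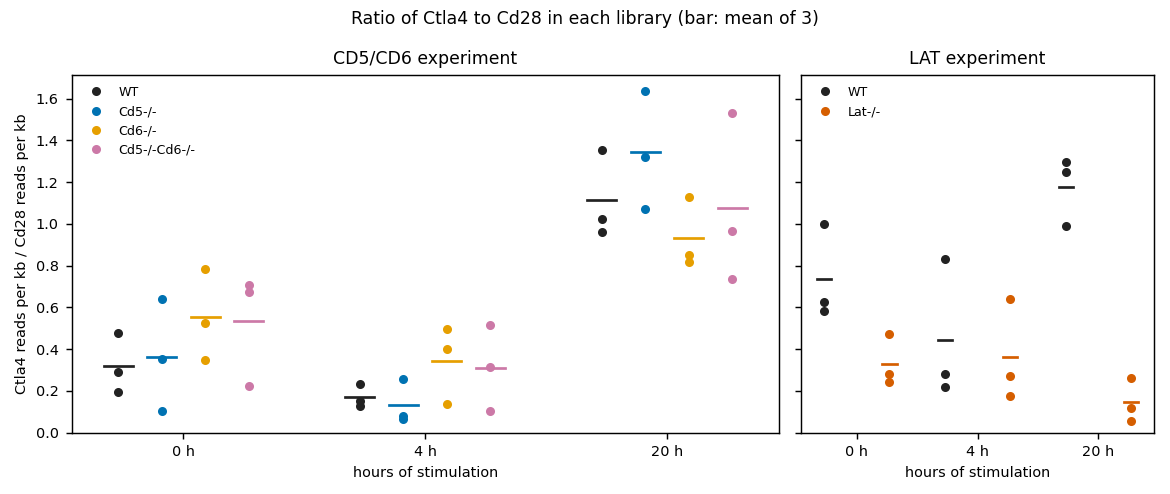
Ratio of Ctla4 to Cd28, each per kb of exon, in every library of both experiments against hours of stimulation on a linear axis, with points for libraries and bars for the mean of 3. At 20 h the WT means are 1.11 and 1.18, and the Lat-/- mean is 0.144.

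PD-1 and its ligand PD-L1 rose steeply and early. Pdcd1 was at 4.99, 5.6 and 11.2 CPM at 0 h, at 474, 477 and 434 CPM at 4 h and at 229, 285 and 248 CPM at 20 h in WT libraries of the CD5/CD6 experiment. The 4 h level was 63.2-fold above 0 h (log2 5.98 ± 0.30, adjusted p = 5.59e-29). It was lower at 20 h in all 3 libraries, by a log2 difference of -0.86 ± 0.24 against 4 h (adjusted p = 0.00281), which was under the fold threshold. Cd274 was at 30.3, 33.6 and 33.9 CPM at 0 h, rose to 722, 747 and 699 CPM at 4 h and was at 85.7, 101 and 92.3 CPM at 20 h. The rise at 4 h was 22.2-fold (log2 4.47 ± 0.17, adjusted p = 1.69e-36), and the level then fell 7.77-fold by 20 h (log2 -2.96 ± 0.16, adjusted p = 1.36e-27), still 2.85-fold above 0 h. In the LAT experiment the WT libraries gave the same order of times for both genes. Pdcd1 read 7.8, 11.8 and 9 CPM at 0 h, 536, 454 and 425 CPM at 4 h and 196, 225 and 218 CPM at 20 h there, and Cd274 read 36.3, 24.8 and 37.6 CPM, then 594, 604 and 456 CPM, then 80.1, 83.8 and 81.3 CPM. Unlike in the CD5/CD6 experiment, the fall of Pdcd1 between 4 h and 20 h passed the fold threshold there (log2 -1.15 ± 0.39, adjusted p = 4.3e-13, and 0.0145 in the second fit), and the difference between the experiments was not tested. The call was lost without replicate 1 (log2 -0.92) and with library totals (log2 -0.94).

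Of the other inhibitory receptors, Btla started high and rose early. It was at 92.9, 97.5 and 131 CPM at 0 h, at 469, 450 and 435 CPM at 4 h and at 392, 433 and 423 CPM at 20 h, a 4.22-fold rise at 4 h (log2 2.08 ± 0.17, adjusted p = 5.31e-18) that was little changed at 20 h. Lag3, which binds MHC class II, was a late gene. Its libraries were at 3.79, 4.49 and 5.99 CPM at 0 h, at 4.22, 3.57 and 4.72 CPM at 4 h and at 104, 87.1 and 107 CPM at 20 h. The first 2 times overlapped (log2 -0.20 ± 0.25, adjusted p = 0.65), and the 20 h level was 20.8-fold above 0 h (log2 4.38 ± 0.26, adjusted p = 7.5e-25). Tigit, which shares the ligand CD155 (Pvr) with Cd226, was at 1.83, 1.75 and 2.5 CPM, at 8.56, 8.98 and 9.79 CPM and at 9.58, 13.5 and 12.2 CPM at the 3 times. It rose 4.47-fold by 4 h (log2 2.16 ± 0.35, adjusted p = 3.11e-07), and the 4 h and 20 h libraries overlapped.

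Cd200 increased at both times. It went from 23.1, 18 and 22.2 CPM to 83.3, 67.7 and 68.6 CPM at 4 h and to 505, 585 and 567 CPM at 20 h, with no overlap between any pair of times. The fold change against 0 h was 3.47 at 4 h (log2 1.80 ± 0.16, adjusted p = 1.3e-15) and 26.2 at 20 h (log2 4.71 ± 0.18, adjusted p = 2.57e-35). In WT cells of the LAT experiment it went from 20.4, 21.7 and 25.9 CPM to 69.1, 63.9 and 73.1 CPM and then to 294, 324 and 344 CPM. Lag3 was again flat between 0 h (3.84, 3.64 and 7.95 CPM) and 4 h (4.91, 3.89 and 4.83 CPM) and high at 20 h there, at 57.3, 52.5 and 23.5 CPM. All 3 of these were below the 3 WT libraries of the CD5/CD6 experiment at 20 h, and the third was well apart from the other two.

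Havcr2 was the exception in direction and was near the limit of detection. It had 24, 23 and 53 reads in the 3 unstimulated WT libraries of the CD5/CD6 experiment, 14, 18 and 18 reads at 4 h and 0, 3 and 2 reads at 20 h. The 5 reads summed at 20 h against 100 at 0 h, scaled for library size, gave a level 18.7-fold lower (95% counting interval 7.74 to 58.7), and the fitted change was called (adjusted p = 2.08e-05). Genes of myeloid or dendritic cells, 7 in all, which include cells known to express TIM-3, moved with it, at a summed 122 to 279 CPM in the WT 0 h libraries, 15.7 to 24.3 CPM at 4 h and 2.13 to 3.33 CPM at 20 h, and 6 B cell genes fell from 105 to 584 CPM to 1.86 to 3.35 CPM. The part of these cells in the Havcr2 reads was not tested. In the LAT experiment, whose sorted WT cells held 5.15 to 6.74 CPM of the myeloid genes at 0 h, Havcr2 had 2, 0 and 4 reads at 0 h, 6, 14 and 10 at 4 h and 1, 3 and 1 at 20 h. The ratio of 4 h to 0 h was 4.76 (95% counting interval 1.95 to 14), and the interval covers counting error only.

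**Figure D3:**
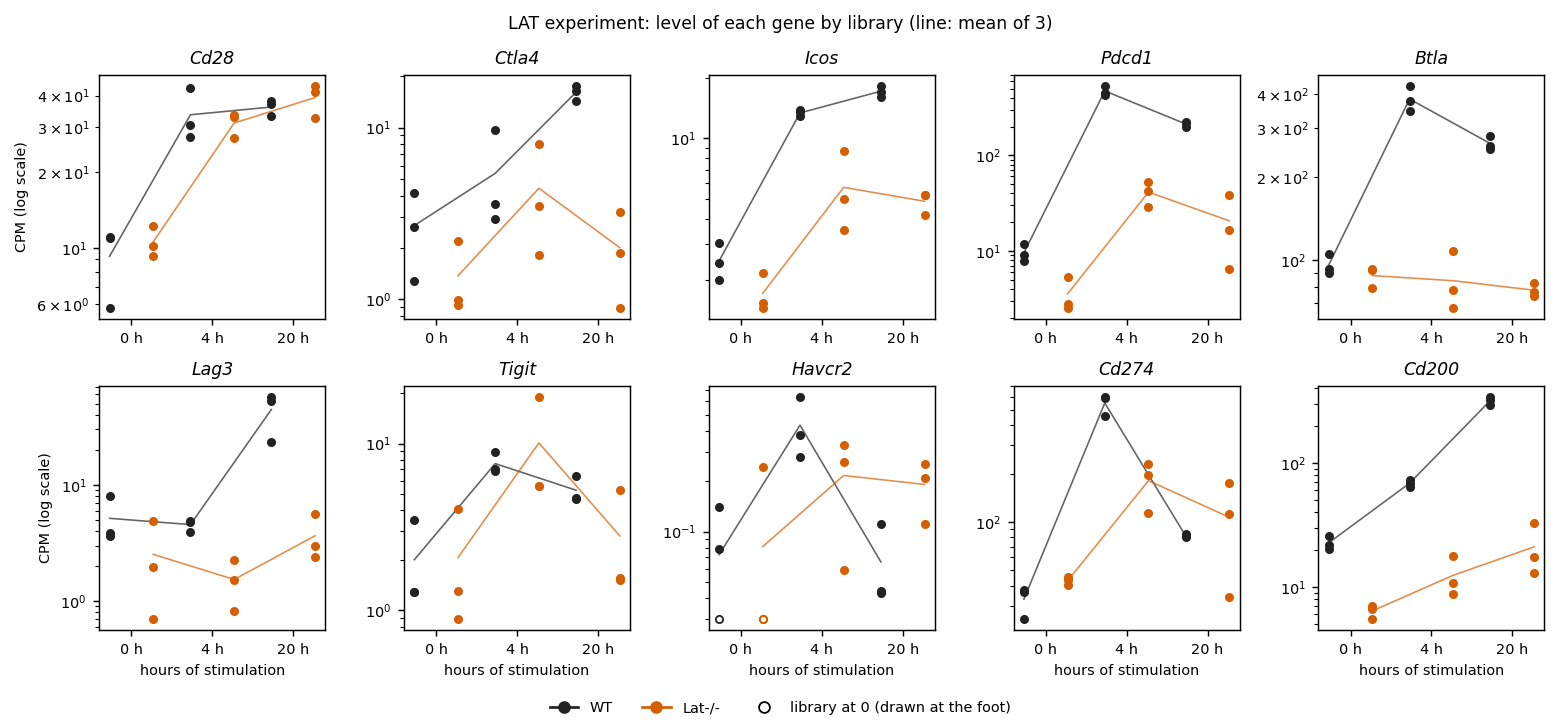
Level of each of the 10 genes in the 18 libraries of the LAT experiment, as CPM on a log axis against hours of stimulation, with points for libraries and lines for the means of WT and Lat-/- cells. Cd28 lies at the same level in both genotypes, while Pdcd1, Btla and Cd200 of Lat-/- cells lie below WT at 4 h and 20 h.

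Other ligands and receptors of these axes, a list of 23 genes, moved mainly downward in WT libraries of the CD5/CD6 experiment. At 4 h 4 of the 23 rose and 9 fell (median log2 -0.74), and at 20 h 4 rose and 13 fell (median log2 -1.35, with a median of 0 over all genes at both times and 19.3% and 29.6% of all genes called). Pdcd1lg2, which encodes the second PD-1 ligand PD-L2, rose from 1.91 to 66.3 CPM at 4 h (log2 5.10 ± 0.26) and was at 69 CPM at 20 h, unlike the transient Cd274. Cd200r1, the receptor of CD200, fell from 21.9 to 2.47 CPM at 4 h (log2 -3.15 ± 0.24) and to 1.16 CPM at 20 h, opposite to Cd200. Cd226, the activating receptor that shares ligands with TIGIT, fell from 74.1 to 9.6 CPM at 4 h and was at 162 CPM at 20 h (log2 4.07 ± 0.21 between those times). Lair1, an inhibitory collagen receptor, fell from 17.1 to 1.12 CPM at 4 h (log2 -3.93 ± 0.27). The 7 myeloid genes, whose cells also carry CD200R1 and LAIR1, fell in the same libraries from a mean sum of 178 CPM to 21.0 CPM at 4 h and 2.90 CPM at 20 h. In the sorted WT libraries of the LAT experiment, with 5.15 to 6.74 CPM of the myeloid genes at 0 h, Cd200r1 fell from 20.6 to 4.08 CPM and Lair1 from 15.1 to 0.986 CPM at 4 h. The B7 ligands Cd86 and Icosl fell at 20 h against 0 h, from 14 to 0.968 CPM and from 15.5 to 0.0622 CPM. The last value lies under the floor of 3 reads a library. The B cell and myeloid genes fell as well, and the part of these cells in the changes of Cd200r1, Lair1, Cd86 and Icosl was not tested. Vsir, which encodes VISTA, went from 590 CPM at 0 h to 2721 CPM at 4 h and 267 CPM at 20 h.

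Of 21 intracellular partners of the receptors, 1 rose and 5 fell at 4 h and 1 rose and 4 fell at 20 h (median log2 -0.02 and -0.60). These 6 and 5 genes of 21 stand beside the 19.3% and 29.6% of all genes called in the same comparisons. Pik3cd and Pik3r1, subunits of the phosphoinositide 3-kinase that CD28 and ICOS recruit, fell at 4 h from 867 to 148 CPM and from 265 to 63.7 CPM. Grap2, the adaptor GADS that binds CD28, fell from 616 to 117 CPM, and Trat1, which aids CTLA-4 transport to the surface, fell from 210 to 71.6 CPM. Between 4 h and 20 h 1 partner rose and 2 fell, and 3 of the 23 ligands and receptors rose and 7 fell. Of all genes, 21% were called there. In WT cells of the LAT experiment, 3 of the 20 ligands and receptors with reads rose and 8 fell at 4 h, and 1 of 21 partners rose and 6 fell. At 20 h against 0 h the corresponding counts were 3 and 10 and 1 and 4. Between 4 h and 20 h they were 4 and 7 and 1 and 2. The share of all genes called in these WT cells was 17.3% at 4 h, 23.5% at 20 h and 17.2% between those times.

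Whether loss of CD5, CD6 or both changes these receptors was asked at each time against WT. No member was called in any of the 9 comparisons by the main edgeR fit, which holds no replicate block, or by DESeq2. Some other edgeR fits called Tigit, as given below. The share of all genes called was 0.0619%, 0.0743% and 0.0186% for Cd5-/- cells at 0, 4 and 20 h, 0%, 0.0031% and 0.0186% for Cd6-/- cells and 0.0248%, 0.0434% and 0.0434% for Cd5-/-Cd6-/- cells. At an unadjusted p below 0.05, 1, 0 and 4 members passed for Cd5-/- cells at those times, beside 955, 1096 and 723 of all 32290 genes. The counts were 2, 2 and 0 members for Cd6-/- cells, beside 707, 885 and 541 genes, and 5, 3 and 3 members for Cd5-/-Cd6-/- cells, beside 594, 891 and 742 genes. The 0 h groups labelled Cd5-/- and Cd6-/- each held a library whose Cd5 and Cd6 counts went against its label, and Cd6 itself was not among the genes called at 0 h for Cd6-/- cells. Without these libraries 209 genes were called at 0 h for Cd5-/- cells and 20 for Cd6-/- cells, and 0 members in either. The 95% intervals limited what could be missed for the abundant receptors. At 4 h in Cd5-/-Cd6-/- cells the log2 difference was -0.17 (-0.64 to 0.31) for Pdcd1, -0.12 (-0.41 to 0.17) for Cd274, -0.08 (-0.40 to 0.24) for Btla and 0.02 (-0.38 to 0.41) for Cd28. None of the other 23 ligands and receptors and none of the 21 partners was called in any of these 9 comparisons.

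Apart from the sparse Havcr2, Tigit had the largest difference of any member in these comparisons. At 4 h it was at 8.56, 8.98 and 9.79 CPM in WT cells and at 12.6, 26.7 and 28.3 CPM in Cd5-/-Cd6-/- cells, and at 20 h it was at 9.58, 13.5 and 12.2 CPM and at 17.8, 31.9 and 26.5 CPM. All 3 Cd5-/-Cd6-/- libraries were above all WT libraries at both times, with library 1 the lowest of its group each time. How large a share of all genes was separated in this way was not counted. The log2 difference was 1.31 ± 0.32 at 4 h (adjusted p = 0.209) and 1.11 ± 0.32 at 20 h (adjusted p = 0.669), neither called. With the replicate number as a block, the adjusted p was 0.00433 at 4 h and 0.0243 at 20 h, and after removal of the unstimulated libraries 2 of Cd5-/- and Cd6-/- it was 0.000412 and 0.00476, so that Tigit was then the 1 member called at each time. Cd6-/- cells had 10.4, 22.3 and 21.4 CPM at 4 h (log2 0.98 ± 0.32, adjusted p = 0.993), and Cd5-/- cells had 16.8, 27 and 20.6 CPM at 20 h (log2 0.87 ± 0.32, adjusted p = 1). The 5 regulatory T cell genes Foxp3, Ikzf2, Ikzf4, Lrrc32 and Gpr83, which had reads in every library, summed to 122 to 152 CPM in WT and 144 to 177 CPM in Cd5-/-Cd6-/- libraries at 4 h, which overlapped. At 20 h their sums were 69.7 to 125 CPM in WT and 51.0 to 57.6 CPM in Cd5-/-Cd6-/- libraries, all lower. Summed genes of effector or memory T cells overlapped between WT and Cd5-/-Cd6-/- libraries at both times. They were at 271 to 288 and 259 to 301 CPM at 4 h and at 258 to 316 and 302 to 346 CPM at 20 h. The part of either kind of cell in the Tigit levels was not tested.

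Smaller differences separated the libraries of some groups at 20 h for Lag3, Cd200 and Btla without passing the test. The share of all genes whose libraries were separated in this way was not counted. Lag3 was at 104, 87.1 and 107 CPM in WT cells, at 144, 138 and 130 CPM in Cd5-/- cells and at 136, 144 and 148 CPM in Cd5-/-Cd6-/- cells. Every library of these knockouts was above every WT library, by a log2 difference of 0.46 (95% interval 0.02 to 0.91) and 0.52 (0.07 to 0.97), both with an adjusted p of 1. Cd6-/- cells, at 91.3, 109 and 131 CPM, overlapped with WT. Cd200 was at 505, 585 and 567 CPM in WT cells, at 685, 690 and 809 CPM in Cd5-/- cells and at 662, 633 and 662 CPM in Cd5-/-Cd6-/- cells, by a log2 difference of 0.40 (0.08 to 0.71) and 0.24 (-0.07 to 0.55), again with adjusted p of 1. Btla was at 392, 433 and 423 CPM in WT cells, at 524, 492 and 531 CPM in Cd5-/- cells and at 536, 446.6 and 446.5 CPM in Cd5-/-Cd6-/- cells, all above WT, and at 375, 369.8 and 329 CPM in Cd6-/- cells, all below WT. Its log2 differences were 0.31 (-0.01 to 0.63), 0.20 (-0.13 to 0.52) and -0.22 (-0.54 to 0.10), each with an adjusted p of 1. The 3 knockouts share the WT libraries, so that these differences are not independent of each other.

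**Figure D4:**
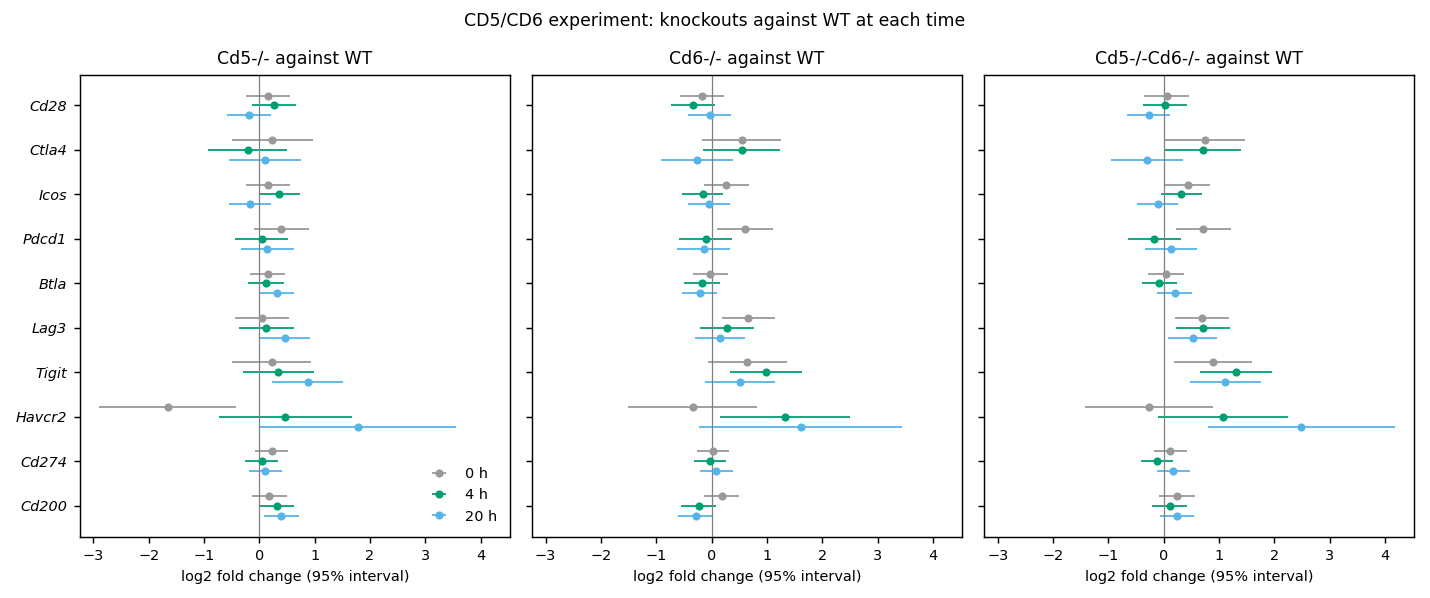
Log2 difference of each member from WT in Cd5-/-, Cd6-/- and Cd5-/-Cd6-/- cells at 0, 4 and 20 h, with bars for the 95% interval of the edgeR fit. Libraries are grouped as labelled. Tigit of Cd5-/-Cd6-/- cells stands at 0.90, 1.31 and 1.11, Havcr2 has the widest intervals, and no member passed the adjusted test in that fit.

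Dependence of the receptors on LAT was asked by comparing Lat-/- with WT cells at each time and by testing the difference between their responses. Without stimulation, 3 members fell in Lat-/- cells and 0 rose, with 0.961% of all genes called. Cd200 was at 20.4, 21.7 and 25.9 CPM in WT cells and at 6.66, 5.5 and 7.04 CPM in Lat-/- cells, with no overlap (log2 -1.82 ± 0.27, adjusted p = 3.93e-24, and 0.0015 in the second fit). Pdcd1 was at 7.8, 11.8 and 9 CPM and at 2.52, 2.75 and 5.37 CPM (log2 -1.41 ± 0.45), which passed the first fit (adjusted p = 6.21e-13) and not the second (adjusted p = 0.197). Lag3 was called in the first fit alone as well (log2 -1.01 ± 0.50, adjusted p = 0.00239 and 0.619), and its libraries, 3.84, 3.64 and 7.95 CPM against 1.97, 0.699 and 4.88 CPM, overlapped.

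At 4 h 6 members fell in Lat-/- cells against WT and 0 rose, with 11.7% of all genes called. Pdcd1 was at 536, 454 and 425 CPM in WT cells and at 42.7, 28.8 and 52 CPM in Lat-/- cells, 11.5-fold lower (log2 -3.52 ± 0.42, adjusted p = 3.15e-97 and 2.04e-06 in the second fit). Btla was at 376, 428 and 346 CPM and at 77.9, 67.1 and 108 CPM, 4.55-fold lower (log2 -2.19 ± 0.15, adjusted p = 1.33e-42 and 3.56e-09). The Lat-/- libraries of Btla spanned their own 0 h level of 79.5, 92.5 and 91.8 CPM. Cd274 was at 594, 604 and 456 CPM and at 231, 114 and 197 CPM, 3.05-fold lower (log2 -1.61 ± 0.37, adjusted p = 2.27e-24 and 0.00124). Cd200 (69.1, 63.9 and 73.1 CPM against 10.7, 8.75 and 17.8 CPM) was 5.53-fold lower, with adjusted p = 8.03e-48 and 6.95e-07. Icos was 2.33-fold lower, at 13.5, 13.7 and 12.9 CPM against 5.01, 3.52 and 8.64 CPM, and was no longer called without replicate 2 (log2 -0.93, under the fold threshold). Lag3 was 3.02-fold lower, at 4.91, 3.89 and 4.83 CPM against 0.828, 1.53 and 2.24 CPM. No library of these 6 genes overlapped between genotypes. This describes genes already called, and the share of all genes so separated was not counted. Cd28 (27.4, 42.7 and 30.7 CPM against 33.5, 27.1 and 32.8 CPM), Ctla4 and Tigit overlapped.

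At 20 h 6 members again fell in Lat-/- cells and 0 rose, with 24.4% of all genes called. Ctla4, the competitor of Cd28, was at 17.5, 14.3 and 16.3 CPM in WT cells and at 1.87, 0.891 and 3.24 CPM in Lat-/- cells, 8.06-fold lower (log2 -3.01 ± 0.57, adjusted p = 2.46e-25 and 0.000116 in the second fit). Lag3 was at 57.3, 52.5 and 23.5 CPM and at 2.98, 2.37 and 5.55 CPM, 12.2-fold lower (log2 -3.61 ± 0.50, adjusted p = 2.7e-50 and 3.93e-06). Cd200 was at 294, 324 and 344 CPM and at 17.4, 13 and 32.7 CPM, 15.2-fold lower (log2 -3.93 ± 0.28, adjusted p = 1.19e-112 and 9.19e-10). Pdcd1 (196, 225 and 218 CPM against 16.4, 6.49 and 38.8 CPM), Icos (17, 16.1 and 18.2 CPM against 4.2, 5.23 and 5.21 CPM) and Btla (252, 283 and 258 CPM against 74.3, 76.7 and 82.5 CPM) completed the 6. They were 10.4-fold, 3.5-fold and 3.4-fold lower, and all 6 had libraries that did not overlap, again with no count over all genes. Tigit, at 4.71, 4.68 and 6.36 CPM against 1.57, 1.52 and 5.3 CPM, was lower in the mean and overlapped (log2 -0.90 ± 0.57, under the fold threshold, adjusted p = 0.00387, and 0.169 in the second fit). Lat-/- library 3 was the highest of its group for Tigit at all 3 times, and without replicate 3 the log2 difference at 20 h was -1.59 and called. That library was also the highest for Pdcd1, Lag3 and Cd200 each time, though not for Cd28, Cd274 or Icos at 20 h. It had the most Lat RNA of its group as well, at 19.1, 11.3 and 17.2 CPM at 0, 4 and 20 h. A link between the residual Lat RNA and these levels was not tested.

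Cd28 and Cd274 were not among the members that fell at 20 h. Cd28 was at 36.9, 38.1 and 33.1 CPM in WT cells and at 41.3, 43.8 and 32.8 CPM in Lat-/- cells, a log2 difference of 0.12 ± 0.20, and its rise from 0 h was called in both genotypes. Cd274 had 80.1, 83.8 and 81.3 CPM in WT cells and 175, 34 and 112 CPM in Lat-/- cells, which lay on both sides of WT (log2 0.38 ± 0.36, adjusted p = 0.031 and 0.346 in the second fit). Without replicate 1 this log2 difference was -0.21.

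Taking the 0 h level of each genotype into account, the response at 4 h was smaller in Lat-/- cells for 3 members and larger for 0, with 8.71% of all genes called for this difference. These were Pdcd1 (log2 difference of responses -2.11 ± 0.60), Btla (-2.06 ± 0.20) and Cd274 (-1.99 ± 0.51). At 20 h the response was smaller for 6 members and larger for 0, with 19.5% of all genes called, namely Lag3 (-2.60 ± 0.69), Cd200 (-2.11 ± 0.37), Ctla4 (-2.05 ± 0.81), Pdcd1 (-1.96 ± 0.60), Btla (-1.64 ± 0.20) and Icos (-1.28 ± 0.37). These 9 differences were also called in the second fit, with the largest adjusted p of 0.0395 for Ctla4, which DESeq2 put at an adjusted p of 0.0558. Tigit was also called at 20 h with the replicate block (log2 -1.12, adjusted p = 0.017) and without replicate 3 (log2 -1.37, adjusted p = 0.0414), beside -0.95 ± 0.83 and no call in both fits. At 20 h the responses of Cd28 differed by a log2 value of -0.07 ± 0.29, and those of Cd274 by 0.0036 ± 0.51.

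**Figure D5:**
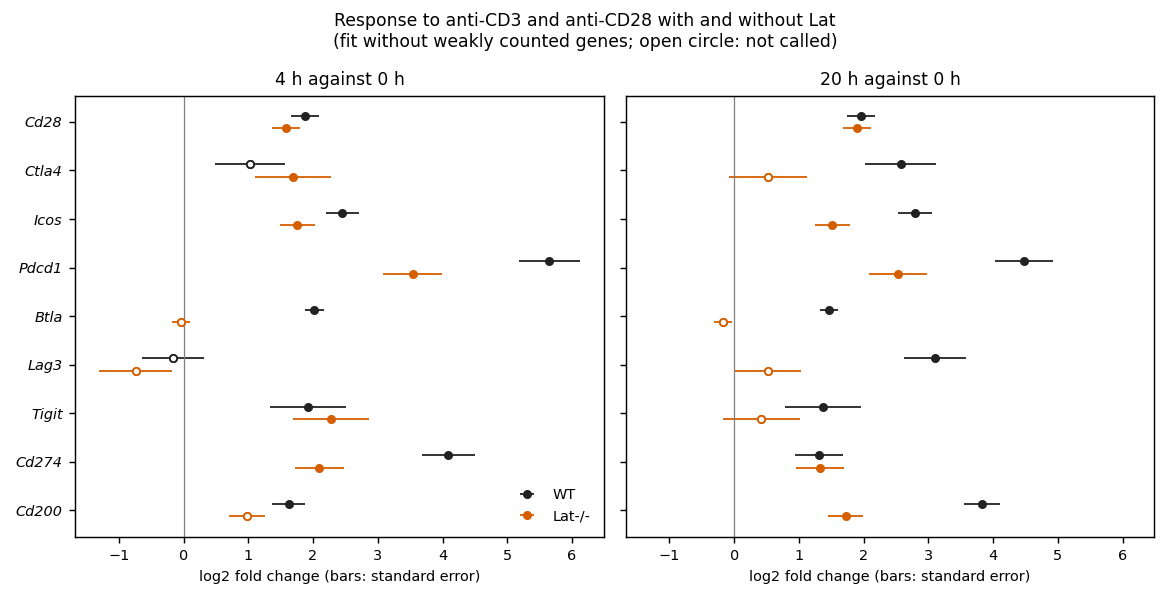
Log2 change from 0 h of 9 members in WT and Lat-/- cells at 4 h and at 20 h, from the fit without low-count genes, with bars for the standard error. Havcr2 did not pass that filter. Btla of Lat-/- cells is near 0 at both times, and Cd28 is close to WT.

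Several members still rose without LAT. Lat-/- cells at 4 h against 0 h had 6 members higher and 0 lower, with 6.7% of all genes called, and at 20 h against 0 h 5 higher and 0 lower, with 4.21% called. Pdcd1 rose 11.5-fold at 4 h in Lat-/- cells, from 2.52, 2.75 and 5.37 CPM to 42.7, 28.8 and 52 CPM, and Cd274 rose 4.22-fold, from 40.4, 43.1 and 45 CPM. Tigit rose from 0.888, 1.31 and 4.03 CPM to 5.59, 5.58 and 19.1 CPM (log2 2.25 ± 0.59, adjusted p = 1.41e-13, and 0.0063 in the second fit), beside a log2 change of 1.90 ± 0.58 in WT cells. Cd28, Ctla4 and Icos were the other 3. The 5 higher at 20 h were Cd28, Icos, Pdcd1, Cd274 and Cd200, and the call of Cd274 was lost without replicate 1 (log2 0.74 in place of 1.32). Btla did not pass the test at either time (log2 -0.06 and -0.18). Between 4 h and 20 h, 1 member was called higher and 3 lower in Lat-/- cells, with 4.1% of all genes called. Tigit fell in both fits (log2 -1.84 ± 0.57), whereas the calls of Ctla4, Pdcd1 and Lag3 were made in the first fit alone.

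Genes of regulatory T cells, which carry CTLA-4, ICOS, TIGIT and CD200 at high level, differed between the LAT groups. The 5 genes Foxp3, Ikzf2, Ikzf4, Lrrc32 and Gpr83 summed to 127 to 175 CPM in WT and 39.5 to 62.7 CPM in Lat-/- libraries at 0 h, to 168 to 201 CPM and 54.1 to 87.2 CPM at 4 h and to 145 to 196 CPM and 32.7 to 42.7 CPM at 20 h. All 5 had reads in every library, and Foxp3 itself was at 50.3 to 62.4 CPM in WT and at 16.3 to 24.5 CPM in Lat-/- libraries at 0 h. Their part in the lower receptor levels of Lat-/- cells was not tested. The summed CD4+ T cell genes were at 2316 to 2597 CPM in WT and at 4079 to 4690 CPM in Lat-/- libraries at 20 h.

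The other genes of these axes went in both directions between Lat-/- and WT cells. Of the 20 ligands and receptors with reads, 0 were higher and 2 lower at 0 h and 5 higher and 4 lower at 4 h. At 20 h 7 were higher and 5 lower, and the median log2 differences at 0, 4 and 20 h were -0.26, 0.49 and 0.56. The share of all genes called at these times was 0.961%, 11.7% and 24.4%. Cd160, which like BTLA binds HVEM, was at 39 CPM in WT and 2.86 CPM in Lat-/- cells at 4 h (log2 -3.77) and at 19.9 and 1.93 CPM at 20 h. Pdcd1lg2 was at 64.1 and 15.7 CPM at 4 h and at 45.3 and 4.8 CPM at 20 h (log2 -3.24), unlike Cd274 at the later time. Cd200r1 was higher in Lat-/- cells at 20 h, at 13.9 against 1.49 CPM (log2 3.21), where Cd200 was lower. Among the 21 partners, 0 were called at 0 h, 4 higher and 2 lower at 4 h and 4 higher and 1 lower at 20 h. These counts stand beside the same shares of all genes. Trat1 (295 against 49.3 CPM), Grap2 (804 against 207 CPM) and Pik3r1 (262 against 74.2 CPM) were higher in Lat-/- cells at 20 h, and Ptpn6, which encodes the phosphatase SHP-1, was lower at 93.9 against 314 CPM. For the difference of responses at 4 h, 6 ligands and receptors and 4 partners had a higher and 2 and 0 a lower value. At 20 h 7 and 4 had a higher and 3 and 0 a lower value. Of all genes, 8.71% and 19.5% were called for these differences. In Lat-/- cells alone, 1 ligand or receptor rose and 3 fell at each time against 0 h and 1 rose and 1 fell between 4 h and 20 h. The partners gave 1 and 1, 1 and 0 and 1 and 0 in the same comparisons, where 6.7%, 4.21% and 4.1% of all genes were called.

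Last, the genes with the most similar pattern to each member were listed by Pearson's r of mean log2 CPM over the 12 conditions of the CD5/CD6 experiment, with r over the 6 conditions of the LAT experiment beside it. The conditions share libraries' times of stimulation, so that high values are common and carry no test. Pdcd1 was nearest to Chst2, a carbohydrate sulfotransferase gene, with r of 0.999 and 0.985 in the LAT experiment. Icos shared Chst2 among its 3 nearest genes (r of 0.989 and 0.967). Lag3 had Mtfr2, Tmem67 and the cell cycle kinase gene Cdk1 as its nearest genes (r of 0.997 each, and 0.916 to 0.944 in the LAT experiment). Tigit was nearest to Tbkbp1, Ifng and Tbx21 (r of 0.986, 0.976 and 0.973), the last 2 being the interferon-γ gene and the gene of its regulator T-bet, and r was 0.927, 0.585 and 0.811 in the LAT experiment. Cd274 was nearest to Nt5dc3, Srgn and Nhlrc1 (0.998 each), Cd200 to Tmem126a (0.999), Btla to Cldnd1 (0.996), Ctla4 to C1qtnf12 (0.988) and Cd28 to Cdyl2 (0.991). For Havcr2 the highest r was 0.92, with Klrc1.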

How the data were processed

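Naive CD4+ T cells were measured by stranded poly(A) RNA-seq (TruSeq). Reads were demultiplexed with bcl2fastq 2.17.1.14, aligned with STAR to GRCm38 (mm10) and counted per gene with featureCounts, per the submitters' processing notes. The authors deposited these raw read counts in 2 tables of 55385 genes, which were used as deposited, and the use of strand in counting is not given in the sources used here. Symbols came from a reference table of Ensembl identifiers, which matched 55144 of them.

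In R 4.3.3, edgeR 4.0.16 (limma 3.58.1) fitted its quasi-likelihood test per table on genes with at least 1 read in total, with TMM factors and each genotype and time as a group. Called genes had a Benjamini-Hochberg adjusted p below 0.05 over all genes tested and a fold change above 2. CPM used TMM-scaled library sizes, and values per kb used the exon length in the table. DESeq2 1.42.0 with a Wald test, RLE factors, library totals, filterByExpr, the compared groups alone, a replicate block, omission of each replicate, an adjusted p with no fold threshold and omission of the 2 unstimulated libraries that went against their labels were alternatives. The fits were tested on simulated counts.

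The 10 members, the gene lists and the tests were chosen with earlier results of these data known. Named are all members, Cd5, Cd6 and Lat, in each other list up to 4 called genes per comparison with the largest fold changes over a minimum mean of 50 counts, and the 3 genes most like each member. Vsir, Foxp3 and partners or ligands set beside a member were named after their values were seen. The labels number the replicates and do not say whether they came from separate mice, so that p-values measure the spread between these samples. Replicate libraries differed by more than sampling noise (chi-square per degree of freedom of 3.02 to 157). Same-numbered libraries deviated together (r above 0.1 in all 3 pairs) for Cd5-/-Cd6-/- against WT at every time, Cd5-/- at 4 h and 20 h, Cd6-/- at 0 h and 4 h, WT at 4 h against 0 h in the CD5/CD6 experiment, and Lat-/- against WT at 0 h. Totals of 17784644 to 45222554 counts per library limit a level to 0.0663 CPM or more at 3 counts on library totals, and intervals on counts cover counting error only.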

Additional observations from a re-analysis of the deposited data

Results flagged for a closer look

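The response to anti-CD3 and anti-CD28 was smaller in Lat-/- than in WT cells for 3 of the 10 members at 4 h, where 8.71% of all genes were called, and for 6 at 20 h, where 19.5% were called, by the test of that difference itself within the edgeR quasi-likelihood fit. At 4 h against 0 h the log2 response of Pdcd1 was smaller by -2.11 (SE 0.60 and adjusted p = 0.0116 in the fit without low-count genes), that of Btla by -2.06 (SE 0.20, adjusted p = 1.39e-06) and that of Cd274 by -1.99 (SE 0.51, adjusted p = 0.00637). All 3 WT libraries of each gene lay above all 3 Lat-/- libraries at 4 h. The share of all genes separated in this way was not counted, at 4 h or at 20 h.

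At 20 h against 0 h the log2 response was smaller in Lat-/- cells by -2.60 for Lag3 (adjusted p = 0.0042 in the fit without low-count genes), by -2.11 for Cd200 (adjusted p = 0.000111), by -2.05 for Ctla4 (adjusted p = 0.0395), by -1.96 for Pdcd1 (adjusted p = 0.0102), by -1.64 for Btla (adjusted p = 2.18e-06) and by -1.28 for Icos (adjusted p = 0.00702). Each of these genes had all 3 WT libraries above all 3 Lat-/- libraries at 20 h. Every group held 3 libraries, too few for a test of a single library that stands apart.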

How the results depend on the processing

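Of 242 counts of members called under an alternative, 225 stayed within 1.5 times the value reported, and no log2 fold change of a called member changed sign in any alternative run. In Cd5-/-Cd6-/- against WT, the count of 0 at 4 h became 1 (Tigit) with the compared groups alone, with the replicate block and after removal of the unstimulated libraries 2 of Cd5-/- and Cd6-/-, and the count of 0 at 20 h became 1 with the block and without those libraries. It was 0 to 1 when each replicate was left out, at 0 h (without replicate 3), 4 h and 20 h (without replicate 1 or 3). In Cd6-/- against WT at 4 h Tigit was the 1 member called with the compared groups alone, and 0 to 1 were called without a replicate (1 without replicate 1). In Cd5-/- against WT at 0 h 0 to 1 were called (Havcr2, lower, without replicate 2). DESeq2 and filterByExpr lowered the count from 3 to 1 for Lat-/- against WT at 0 h and from 4 to 1 for Lat-/- cells at 20 h against 4 h. In the LAT experiment Cd274 rested on replicate 1 at 20 h, with a log2 change from 0 h of 0.74 in Lat-/- cells without it and 1.32 with it. The replicate block moved no other count of members by over 1.5 times, though it ended the call of Ctla4 in the WT LAT libraries at 4 h and added Tigit for Lat-/- against WT at 20 h and for the difference of the 20 h responses. Over all genes, the number called in a knockout of Cd5 or Cd6 was 0 to 24 as reported and 0 to 371 over the alternatives, and Lat-/- against WT at 0 h had 267 as reported, 100 with filterByExpr and 175 by DESeq2. With no fold threshold, 4285, 2970 and 2813 genes were called in Lat-/- cells in place of 1861, 1170 and 1138. Library totals moved the median gene by -0.31 at 4 h in WT libraries of the CD5/CD6 experiment, and the share of called genes that were higher went from 42.6% to 30.6% there, from 46.4% to 32.9% in the LAT experiment, from 45.9% to 56.7% for its WT cells at 20 h against 4 h, and from 50.1% to 64.2% for the difference of its 4 h responses. The cause of these changes was not tested. Havcr2, with 0 to 53 reads in the WT libraries, and Ctla4 and Tigit, at a few CPM without stimulation, are where depth most limits a statement.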
